A study of Mus musculus with 3 samples.

Results

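The 10 genes described here encode the 5 NF-kB subunits (Nfkb1, Nfkb2, Rel, Rela and Relb) and 5 of their inhibitors (Nfkbia, Nfkbib, Nfkbie, Nfkbiz and Tnfaip3), out of 17615 genes listed in at least 1 library. They were taken by name, as the rows whose NCBI mouse gene ID is that of the symbol, a rule that uses no measured value. The list itself was chosen with earlier results of these data known. All 10 were found in every library. Their levels were measured by RNA sequencing in macrophages from mice with acute myeloid leukemia, with 1 library in each of 3 groups. C57BL/6J recipients aged 6 to 8 weeks had been given 800000 GFP+BFP+ leukemia cells each, without irradiation. The leukemia cells carried a high level of mM-CSF in the mM-CSF group, a high level of sM-CSF in the sM-CSF group, and neither in the control group. On day 18, macrophages negative for GR1, intermediate for CD115 and positive for F4/80 were sorted from the spleen. All 3 groups therefore share leukemia, strain, organ, day and sort, and no library from a mouse without leukemia was analysed here. What the prefixes m and s stand for is not spelled out by the submitters, and the number of mice behind a library and the origin of the leukemia cells are not given in the sources used here.

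NF-kB is a family of dimeric transcription factors that drive inflammatory, survival and lymphoid genes. In resting cells the IkB proteins hold most dimers in the cytoplasm, and on signals from toll-like, interleukin-1 or TNF receptors the IKK kinase complex marks the IkB proteins for degradation, so that dimers such as p50 with RelA or c-Rel enter the nucleus. A slower, non-canonical branch, opened by receptors such as CD40 through the kinase NIK, converts p100, the product of Nfkb2, to p52 and releases RelB. Several NF-kB genes are themselves NF-kB targets, among them Nfkbia and Tnfaip3, and their products close the response as negative feedback.

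The libraries held 9088200 (control), 8570732 (mM-CSF) and 8943847 (sM-CSF) estimated counts. The deposited levels are in FPKM, which scales counts to gene length and to the mapped fragments of the library. Where 3 values are listed for a gene without further words, they stand in the order control, mM-CSF, sM-CSF. Libraries were compared by the difference of log2(FPKM + 1), on which low genes differ by less than their true ratio. A gene is called higher or lower if 2-fold or more apart (a difference of 1) and at 5 FPKM or above in the library with more of it. With 1 library per group no difference has a replicate check, no test between groups is possible, and each value describes these libraries. Ratios of a gene's share of counts are given with exact conditional (Clopper-Pearson) 95% intervals that cover counting error only. In each library 10 of 10 macrophage markers were at 1 FPKM or more. Among them Csf1r, which encodes CD115, an antigen of the sort, was at 267.52, 221.98 and 149.39 FPKM. This shows that these transcripts were present and is no check on the purity of the sort. In a bulk sample, fewer cells of a type and less RNA per cell cannot be told apart.

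RefSeq promoter sequence of the GRCm38.p6 build was used for 7 of the 10 members (not for Nfkb1, Relb and Nfkbiz, 3 of the 5 that were called lower in the mM-CSF library below), and the 250 bases before each start were searched on both strands for the kappa B consensus, the NF-kB binding motif of 10 bases. A match was present in 5 of these 7 genes (Nfkb2, Rel, Nfkbia, Nfkbie and Tnfaip3), and in none of the windows of Rela and Nfkbib. Of all 32851 promoter windows of that length 3.90% held a match, and of the 7920 genes with a window and at least 5 FPKM in some library 5.37% did in at least 1 window. Rel and Tnfaip3, both far below their control level in the mM-CSF library, and Nfkbia, level across libraries as deposited, are printed 5′ to 3′ with the matches in capitals.
Rel, chr11:23770970-23771219, minus strand: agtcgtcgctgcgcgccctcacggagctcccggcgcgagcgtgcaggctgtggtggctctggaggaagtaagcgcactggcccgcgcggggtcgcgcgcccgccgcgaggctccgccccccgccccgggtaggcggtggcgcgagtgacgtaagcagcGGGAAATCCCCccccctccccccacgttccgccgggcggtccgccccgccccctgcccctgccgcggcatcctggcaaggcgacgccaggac
Tnfaip3, chr10:19015411-19015660, minus strand: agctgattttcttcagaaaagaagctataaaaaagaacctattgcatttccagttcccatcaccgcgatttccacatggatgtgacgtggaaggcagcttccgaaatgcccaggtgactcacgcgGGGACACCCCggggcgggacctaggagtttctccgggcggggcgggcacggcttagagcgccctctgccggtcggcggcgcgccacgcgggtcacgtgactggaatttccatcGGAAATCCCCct
Nfkbia, chr12:55492648-55492897, minus strand: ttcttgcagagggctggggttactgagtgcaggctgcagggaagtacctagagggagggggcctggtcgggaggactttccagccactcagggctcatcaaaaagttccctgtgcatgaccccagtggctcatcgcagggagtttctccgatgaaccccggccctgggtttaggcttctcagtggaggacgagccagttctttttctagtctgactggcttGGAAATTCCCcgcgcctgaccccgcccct
Counted back from the start, the match lies at -92 to -82 in Rel, where 2 matches overlap, at -125 to -116 and -12 to -3 in Tnfaip3, and at -29 to -20 in Nfkbia. Tnfaip3 has a second annotated start whose window held no match. Nfkb2 has 3 windows, each with a match, such as GGGACTTTCC at -225 to -216 of one of them, and Nfkbie holds GGGGGATTCC at -106 to -97. A match describes these letters and does not show that a factor bound there.

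Among the subunits, Rel had the largest difference of any member, and Rela the smallest of any subunit, between the mM-CSF and control libraries. Rel encodes c-Rel, a transactivating subunit prominent in lymphoid and dendritic cells. Control macrophages had 38.61 FPKM, mM-CSF macrophages 2.69 and sM-CSF macrophages 16.33. The mM-CSF library was the lowest and the control the highest, and the sM-CSF library lay between them. Its share of counts was 14.3-fold lower in the mM-CSF library than in the control (interval 11.0 to 18.9), on 60 and 909 counts, and 2.36-fold lower in the sM-CSF library (2.09 to 2.67). Rel stood above 86.7% of listed genes in the control and above 37.3% in the mM-CSF library.

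Nfkb1 encodes p105, the precursor of p50, which lacks a transactivation domain and pairs with RelA or c-Rel. It was at 106.01 FPKM with control, 46.84 with mM-CSF and 88.32 with sM-CSF leukemia, so the mM-CSF library again was lowest. The share of counts was 2.25-fold lower in the mM-CSF library than in the control (2.12 to 2.38) and 1.20-fold lower in the sM-CSF library (1.14 to 1.26). Relb, which encodes the partner of p52 in the non-canonical branch, was at 90.63, 41.96 and 106.29 FPKM. Here the sM-CSF library was the highest of the 3, 1.17-fold above the control in share of counts (1.10 to 1.25), and the mM-CSF library was 2.15-fold below the control (1.98 to 2.34). Nfkb2, the source of p52, was at 92.01, 63.63 and 91.87 FPKM, with the control and sM-CSF libraries level (ratio 0.998, 0.945 to 1.05) and the mM-CSF library 1.46-fold below the control (1.37 to 1.55).

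Rela encodes RelA (p65), the main transactivating subunit of the canonical pathway. It was at 63.01, 58.15 and 67.32 FPKM. The 3 libraries were close, with a share of counts 0.929 times the control's in the mM-CSF library (0.863 to 1.000) and 1.07 times in the sM-CSF library (0.998 to 1.15).

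**Figure D1:**
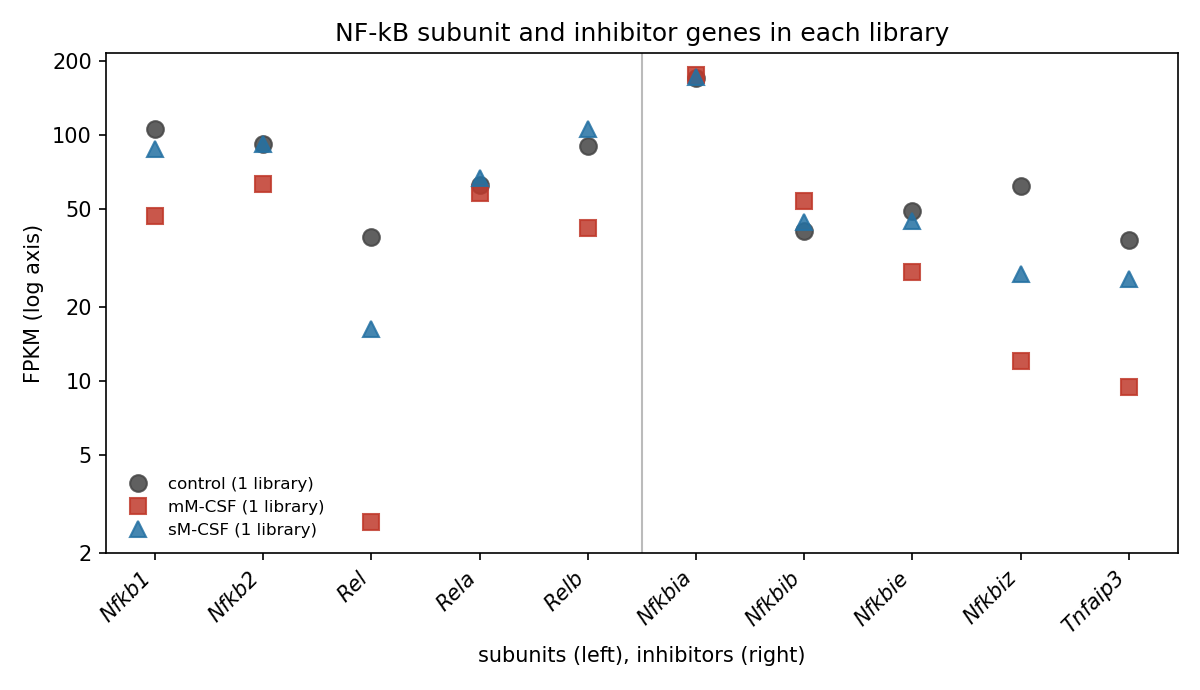
Level of each of the 10 genes in FPKM (log axis) for control, mM-CSF and sM-CSF macrophages, 1 point per library, with subunits on the left and inhibitors on the right. Rel, Nfkbiz and Tnfaip3 are widest apart, with the mM-CSF library lowest, at 2.69, 12.11 and 9.48 FPKM, while the 3 points of Nfkbia fall on each other, from 171.91 to 175.48 FPKM.

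The inhibitors did not share 1 pattern. Nfkbia encodes IkB alpha, the inhibitor that is degraded and resynthesised in each canonical response. It was the most abundant of the 10 genes in every library, at 171.91 FPKM with control, 175.48 with mM-CSF and 173.46 with sM-CSF leukemia. The share of counts was 1.03 times the control's in the mM-CSF library (0.971 to 1.09) and 1.01 times in the sM-CSF library (0.956 to 1.07). Nfkbib, for IkB beta, a slower inhibitor, was at 40.96, 53.99 and 44.4 FPKM, the only member highest in the mM-CSF library beyond counting error (1.31-fold above the control, 1.17 to 1.48). That direction depended on the scaling, since the difference of 0.39 was -0.07 with each library rescaled to the same summed level (TPM) and -0.14 with the trend on gene length, described below, removed. Nfkbie, for IkB epsilon, was at 49.32, 27.88 and 45.02 FPKM, lowest in the mM-CSF library but short of 2-fold (difference -0.80), although past it under TPM (-1.27).

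Nfkbiz encodes IkB zeta, a nuclear member of the family that acts with p50 on a second wave of inflammatory genes and is itself induced through toll-like and interleukin-1 receptors. Control macrophages had 62.04 FPKM of it, mM-CSF macrophages 12.11 and sM-CSF macrophages 27.45. The control was highest and the mM-CSF library lowest, a 5.15-fold lower share of counts than the control (4.61 to 5.76), and the sM-CSF library was 2.26-fold lower (2.09 to 2.45). Tnfaip3 encodes A20, a ubiquitin-editing enzyme that turns off signalling upstream of IKK. It was at 37.71, 9.48 and 26.19 FPKM, in the same order of libraries. Its share of counts was 3.98-fold below the control in the mM-CSF library (3.55 to 4.48) and 1.44-fold in the sM-CSF library (1.33 to 1.56).

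Counted by the size rule, 5 of 10 members were lower in the mM-CSF than in the control library (Nfkb1, Rel, Relb, Nfkbiz and Tnfaip3) and 0 were higher, while 15.1% of the 9789 genes with the minimum expression were lower and 8.97% higher. The median difference of the members was -0.95, beside -0.07 over the 12782 genes at 1 FPKM or more. In the sM-CSF library 2 members, Rel and Nfkbiz, were lower than in the control and 0 higher, against 1.63% of 9683 genes lower and 0.785% higher. Here the median of the members, -0.07, was close to that of all genes, 0.02. Both comparisons use the same control library. When the mM-CSF library was set against the sM-CSF library, 4 members were lower in the mM-CSF library (Rel, Relb, Nfkbiz and Tnfaip3) and 0 higher, against 8.73% and 3.79% of 9574 genes, with a median of -0.79 beside -0.11 over all genes. Relb differed by -1.32 in this comparison and by 0.23 between the sM-CSF and control libraries. Rel differed by -2.23, Tnfaip3 by -1.38 and Nfkbiz by -1.12. Past 3-fold were 3 members (Rel, Nfkbiz and Tnfaip3) in the mM-CSF library against the control, where 5.73% of all genes were lower by that much, 0 in the sM-CSF library against the control (0.413%), and 1, Rel, in the mM-CSF against the sM-CSF library (2.17%). Under TPM 6 members were lower in the mM-CSF library against the control, Nfkbie being added, where 30.3% of all genes were lower. In the sM-CSF library against the control 2 were lower (3.24% of all genes), and in the mM-CSF against the sM-CSF library 5, with Nfkb1 added at -1.22 (19.8%).

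**Figure D2:**
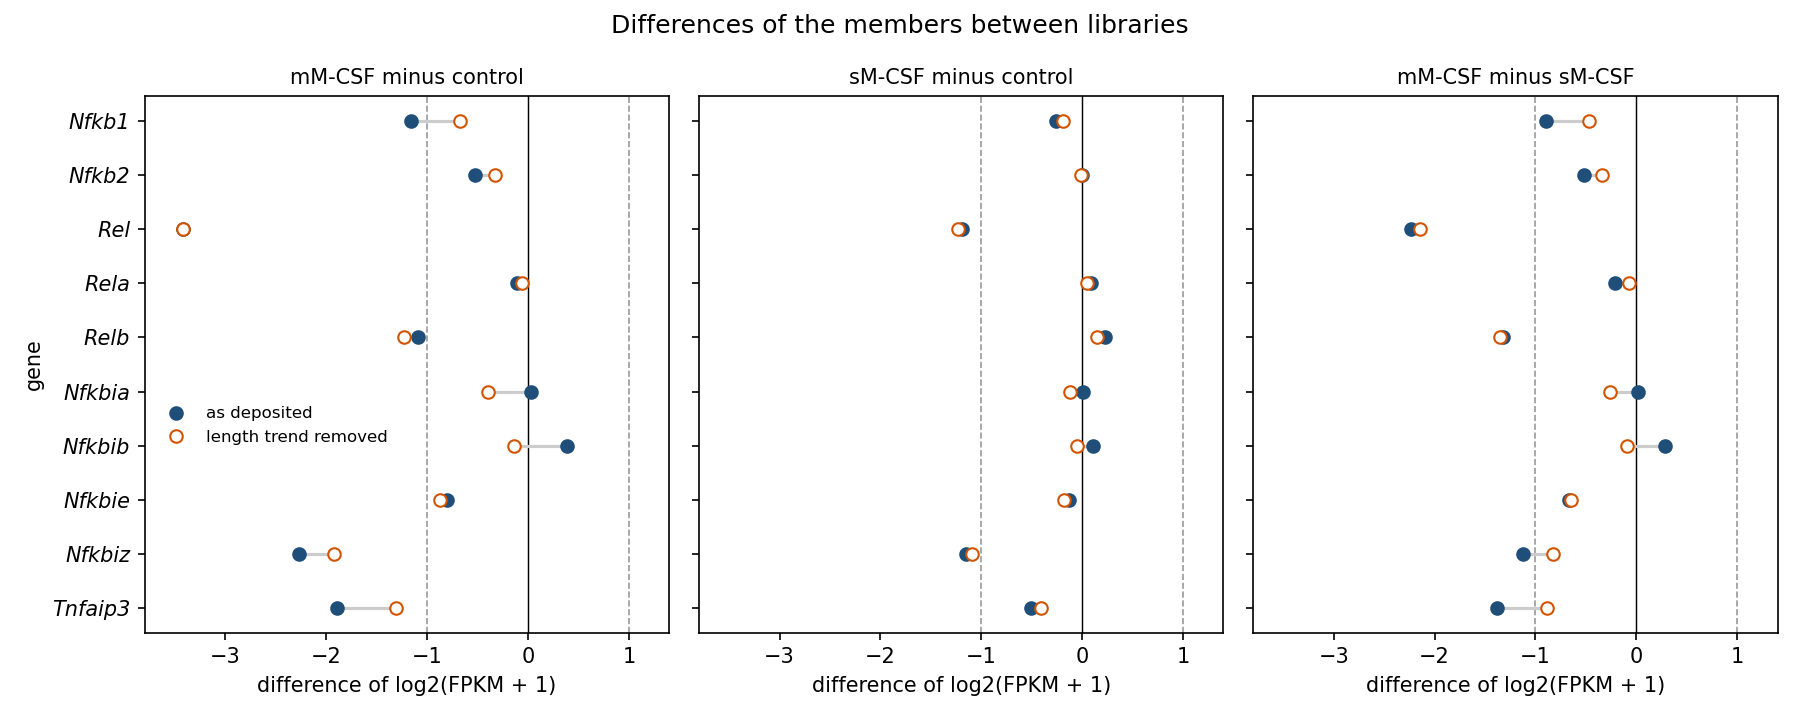
Difference of log2(FPKM + 1) for each member in the 3 comparisons, as deposited (filled) and with the trend on gene length removed (open), with dashed lines at 2-fold. Rel lies beyond 2-fold on both scales in each panel, and Nfkb1 passes from -1.16 to -0.67 in the comparison of the mM-CSF with the control library.

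Gene length moved with these differences. Between the mM-CSF and control libraries, the rank correlation (Spearman's rho) between length and difference was -0.67 over the 9789 genes, a description across genes, which are not independent replicates. The median of the difference went from 1.07 in the shortest of 20 equal bins of genes (around 521 bases) to -1.25 in the longest (around 8592). The members run from 1413 bases (Nfkbib) to 4396 (Tnfaip3). Rel, at 2584 bases, sits where the trend is near 0, and its difference was -3.42 with and without the trend. Relb, at 2215 bases, was further from 0 without it (-1.23 in place of -1.09). Tnfaip3 and Nfkbiz were still called without it, at -1.31 in place of -1.89 and -1.92 in place of -2.27, whereas Nfkb1, at 4128 bases, was not, at -0.67. Nfkbia, shorter at 1592 bases, went from 0.03 to -0.40, so that its level relative to genes of its length was lower in the mM-CSF library. With the trend removed, 4 members remained lower, beside 7.77% of all genes. The trend was flatter between the sM-CSF and control libraries (rho -0.45), where Rel and Nfkbiz stayed called at -1.23 and -1.09, beside 1.81% of all genes. For the mM-CSF against the sM-CSF library, Rel (-2.15) and Relb (-1.35) stayed called, beside 4.66% of all genes, and Nfkbiz (-0.83) and Tnfaip3 (-0.89) did not.

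**Figure D3:**
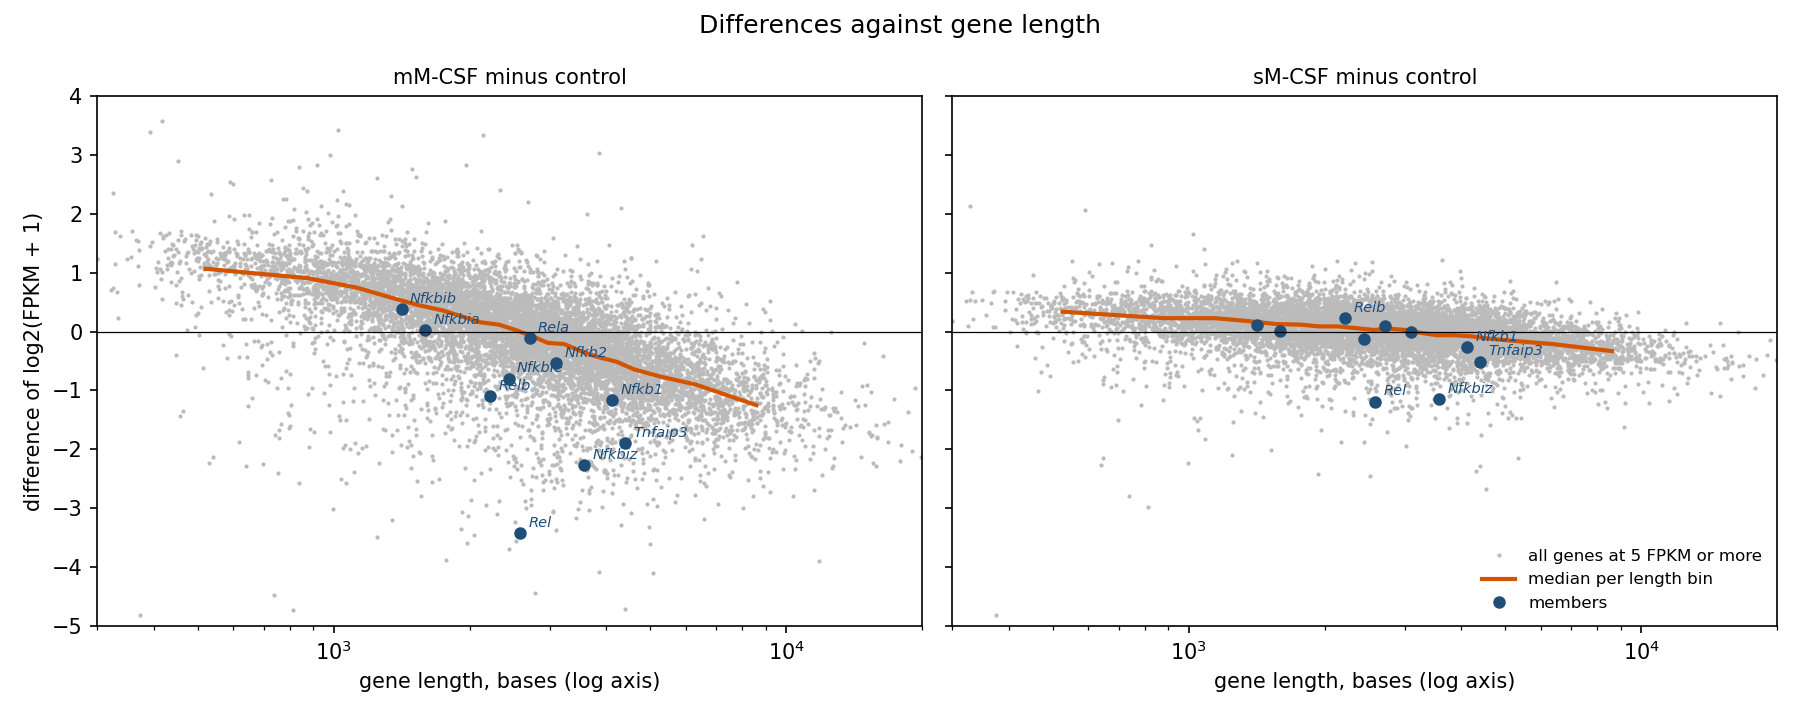
Difference of log2(FPKM + 1) against gene length in bases (log axis) for genes at 5 FPKM or more, within the plotted range, in the mM-CSF and sM-CSF libraries against the control, with the median of 20 length bins as a line and the members as labelled points (on the right, those at 0.2 or more in size). Rel, at -3.42 on the left, lies furthest below the line among the members, while Rela, at -0.11, lies on it.

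The make-up of the subunit pool differed between libraries on a measure that does not depend on how the libraries are scaled, although the length trend still touches it. Of the summed FPKM of the 5 subunits (390, 213 and 370), Rel made up 9.89%, 1.26% and 4.41%, and Rela 16.1%, 27.3% and 18.2%. Rel was at 0.613 times the level of Rela in the control library, 0.0463 times with mM-CSF and 0.243 times with sM-CSF leukemia. Nfkb1 stood above Rela in the control and sM-CSF libraries (1.68 and 1.31 times its level) and below it in the mM-CSF library (0.806 times). That order is not corrected for the length trend. Between the mM-CSF and control libraries the trend was -0.49 at the length of Nfkb1 and -0.06 at that of Rela. Relb and Nfkb2, the pair of the non-canonical dimer, were level in the control (0.985 times), whereas Relb was at 0.659 times Nfkb2 in the mM-CSF and 1.16 times in the sM-CSF library.

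Among the 5 inhibitors, Nfkbia made up 47.5% of the summed FPKM with control, 62.9% with mM-CSF and 54.8% with sM-CSF leukemia. Nfkbiz made up 17.1%, 4.34% and 8.67%, and Tnfaip3 10.4%, 3.40% and 8.27%. The summed FPKM of inhibitors was 0.927 times that of subunits in the control library, 1.31 times with mM-CSF and 0.855 times with sM-CSF leukemia. These sums are not corrected for the length trend. Between the mM-CSF and control libraries it was 0.43, 0.53, 0.07, -0.35 and -0.57 at the lengths of Nfkbia, Nfkbib, Nfkbie, Nfkbiz and Tnfaip3. At those of Nfkb1, Nfkb2, Rel, Rela and Relb it was -0.49, -0.20, -0.0, -0.06 and 0.14. The part of the length trend in the ratio was not tested. Nfkbia stood at 2.73, 3.02 and 2.58 times the level of Rela, a narrower spread than that of any other pair named here.

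**Figure D4:**
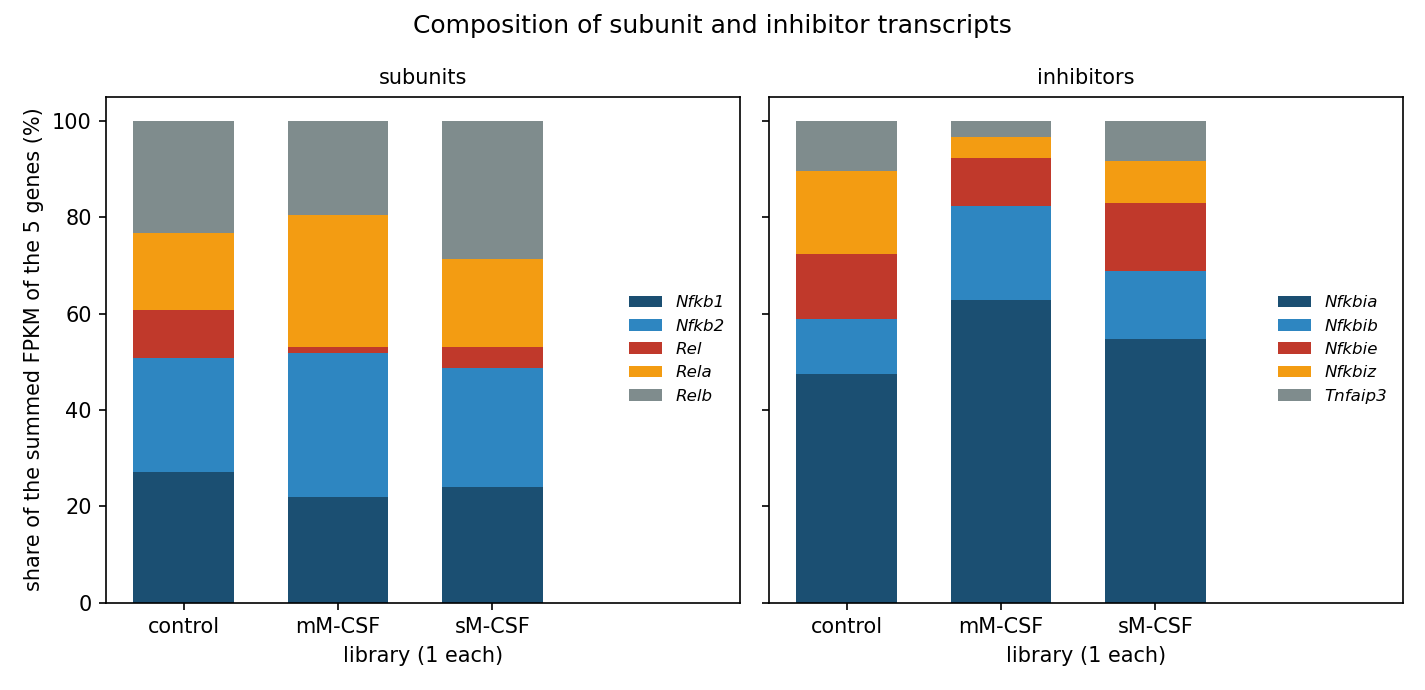
Share of each gene in the summed FPKM of the 5 subunits (left) and the 5 inhibitors (right), as stacked bars, 1 library per bar. The Rel segment narrows from 9.89% in the control to 1.26% in the mM-CSF library, and Nfkbia takes 62.9% of the inhibitor bar in the mM-CSF library.

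The order of the members by FPKM was Nfkbia, Nfkb1, Nfkb2, Relb, Rela, Nfkbiz, Nfkbie, Nfkbib, Rel and Tnfaip3 in the control. Of the 9 neighbouring pairs in that order, 4 did not differ beyond counting error, namely Nfkb2 and Relb, Rela and Nfkbiz, Nfkbib and Rel, and Rel and Tnfaip3. In the mM-CSF library Rel was last, at 3.52-fold below Tnfaip3 in FPKM (2.68 to 4.71), and Rela stood behind only Nfkbia and Nfkb2. In the sM-CSF library Relb was second, 1.16-fold above Nfkb2 (1.09 to 1.23), and Rel was again last.

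Other genes of the pathway were described from lists that hold no member. Of 9 kinases and partners of the IKK and non-canonical axis, 3 were lower in the mM-CSF than in the control library and 0 higher. Their median difference was -0.81, or -0.40 with the length trend removed. Among all genes 15.1% were lower and 8.97% higher, as given before, or 7.77% and 3.01% with the length trend removed. These shares also stand beside the counts of the mM-CSF library in the lists below. For the sM-CSF library the shares of all genes were 1.63% lower and 0.785% higher, or 1.81% and 0.496% with the length trend removed. All shares are over genes at 5 FPKM or more in either library. The list counts are out of genes that include some below that level, which cannot be called. Map3k14, which encodes NIK, was at 36.68, 12.07 and 32.72 FPKM. Chuk, for the kinase IKK alpha, was at 26.85, 9.51 and 22.67 FPKM, and Traf3, which holds NIK in check, at 19.74, 7.87 and 17.54. Birc2, a ubiquitin ligase that works with it, was at 26.76, 13.34 and 24.36. With the length trend removed Map3k14 and Chuk were still past 2-fold (-1.03 and -1.09), and Traf3, a long transcript, was not (-0.20). None of the 9 was called in either direction in the sM-CSF library, where the median was -0.13.

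Of 12 adaptors and kinases downstream of toll-like and interleukin-1 receptors, 4 were lower and 0 higher in the mM-CSF library (median -0.69). With the length trend removed 1 of the 12 remained lower, beside 7.77% of all genes, and the median was -0.35. Tab2, which links ubiquitin chains to the kinase TAK1, was at 76.54, 26.75 and 56.13 FPKM, the ubiquitin ligase gene Traf6 at 14.85, 5.42 and 12.37, and Tab3, a relative of Tab2, at 5.27, 1.80 and 4.12. Irak3, for an inhibitory member of the IRAK family, was at 15.46, 6.18 and 10.41 FPKM and was the 1 still called without the trend, at -1.01. The sM-CSF library had 0 of the 12 called.

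The TNF receptor and ubiquitin chain list was divided: 1 of 10 was higher and 1 lower in the mM-CSF library, and the median was 0.16. Tnfrsf1b, which encodes TNF receptor 2, was at 114.72, 27.19 and 52.76 FPKM and was called lower in both the mM-CSF (-2.04) and the sM-CSF library (-1.11). It was the 1 gene of the 10 called in the sM-CSF library, and with the length trend removed it was short of 2-fold there (-0.96) and past it in the mM-CSF library (-1.34). Tnfrsf1a, for TNF receptor 1, was at 53.87, 36.65 and 37.23 FPKM. Tradd, an adaptor of TNF receptor 1, was at 14.61, 30.35 and 23.04 FPKM, called higher at 1.01, but at 0.45 with the length trend removed and so short of 2-fold. Ube2v1, a subunit of the enzyme that makes K63-linked ubiquitin chains, was at 97.95, 149.01 and 109.54 FPKM.

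Of 10 further attenuators that edit or read ubiquitin chains, 1 was lower and 0 higher in the mM-CSF library (median -0.41, or -0.10 without the length trend). It was Itch, a ubiquitin ligase that works with A20, at 36.25, 11.9 and 28.91 FPKM (-1.53, or -0.77 without the length trend). N4bp1, an inhibitor of NF-kB signalling, was at 19.13, 9.35 and 13.51 FPKM, and the deubiquitinase genes Cyld and Otulin at 21.72, 11.27 and 20.92, and at 36.9, 54.87 and 42.04. Of the 10, 9 reached the 5 FPKM that a call needs. Without the trend 0 were called, beside 7.77% of all genes lower and 3.01% higher, a count near those shares for so short a list. Tnfaip3 itself was at -1.31 without the trend, and the difference between it and this list was not tested. As for the sM-CSF library, 0 of the 10 were called.

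Of 6 genes of the CARD, BCL10 and MALT1 route, by which antigen receptors and C-type lectins reach IKK, 2 were lower and 0 higher in the mM-CSF library. The median was -0.97, or -0.57 without the length trend. Malt1, a paracaspase that cleaves A20, was at 59.15, 15.32 and 49.17 FPKM, and Card9, the myeloid adaptor of the route, at 19.66, 7.89 and 14.64. Both stayed past 2-fold without the length trend (-1.16 and -1.64). Prkcb, a kinase upstream of them, was at 81.19, 44.29 and 74.61 FPKM.

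Receptors that open the non-canonical branch were mixed, with 1 of 5 lower, 0 higher and a median of 0.14 in the mM-CSF library (-0.24 without the length trend). The 1 was Tnfrsf11a, for RANK, at 6.73, 2.60 and 5.10 FPKM, and 0 of the 5 were called with the length trend removed. Cd40 was at 28.64, 20.52 and 34.54 FPKM, Ltbr, for the lymphotoxin beta receptor, at 17.28, 20.96 and 17.53, and Tnfrsf13c, the BAFF receptor gene of B cells, at 62.3, 68.71 and 101.2. The other IkB genes, 3 in number, had 1 higher and 0 lower. Bcl3, for a nuclear IkB protein that binds p50 and p52, was at 53.79, 31.38 and 53.65 FPKM (-0.76 in the mM-CSF library, or -1.07 without the length trend), and Nfkbid, another nuclear member, at 44.58, 32.35 and 49.89. Nfkbil1, an IkB-like gene, was at 9.66, 21.55 and 13.32 FPKM, higher by 1.08 but by 0.58 without the trend. Genes of these 2 lists and of the CARD, BCL10 and MALT1 route gave 0 calls in the sM-CSF library.

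**Figure D5:**
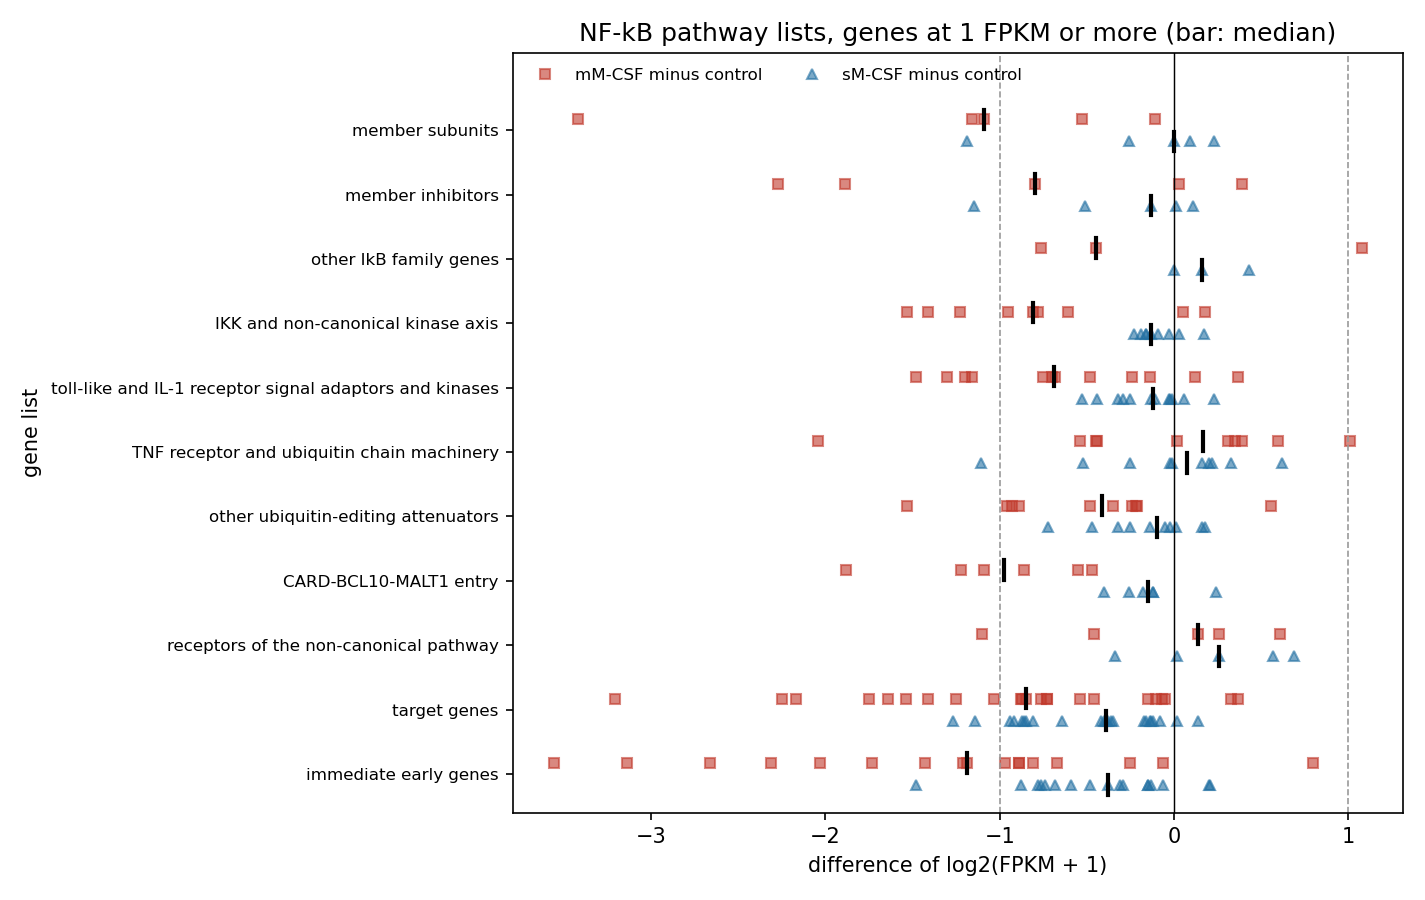
Difference of log2(FPKM + 1) of each gene at 1 FPKM or more in the member and pathway lists, in the mM-CSF (squares) and sM-CSF (triangles) libraries against the shared control, with black bars at the medians and dashed lines at 2-fold. Medians of the mM-CSF comparison run from -1.19 in the immediate early list to 0.16 in the TNF receptor list.

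Genes commonly induced by NF-kB were lower in part. Of 26 target genes 23 were at 1 FPKM or more in the control or mM-CSF library, of which 8 were lower and 0 higher in the mM-CSF library, with a median of -0.85. After removal of the length trend 10 were lower, with -0.99 as the median. Il1b, for interleukin-1 beta, was at 68.57, 6.52 and 37.41 FPKM, Il12b, for a subunit of interleukin-12 and interleukin-23, at 5.80, 0.51 and 2.09, the TNF gene Tnf at 36.95, 10.32 and 20.71, and Nod2, a cytosolic sensor of bacterial cell walls, at 6.44, 1.39 and 4.55. In each of these the sM-CSF library lay between the other two, as for Rel, Nfkbiz and Tnfaip3. In the sM-CSF library 1 of 23 measured target genes was lower, Il12b (-1.14), beside 1.63% of all genes, with a list median of -0.39. With the length trend removed 4 were lower there, beside 1.81% of all genes.

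Immediate early genes, which also respond within minutes to handling of cells, were in part lower in the mM-CSF library, as were the members. Of 17 such genes 9 were lower and 0 higher in the mM-CSF library (median -1.19, or -0.77 without the length trend), and their summed level was 2311, 1019 and 1755 FPKM, with 0 genes listed at 0. Nr4a1 was at 265.83, 21.69 and 94.85 FPKM, Atf3 at 40.74, 3.75 and 21.73, Egr1 at 176.4, 27.04 and 135.79, and Dusp1 at 111.41, 21.73 and 69.34. Only Nr4a1 of the 17 was called in the sM-CSF library (-1.48), and the median there was -0.38, beside -0.07 for the members. The part of these genes in the differences of the members was not tested.

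Markers of other cell types in the sort also differed between the libraries, and not all of them in the pattern of the members. Conventional dendritic cells, in which Rel and Relb are abundant, had 6 of 8 markers lower in the mM-CSF than in the control library and 0 of 8 called in the sM-CSF library, and their summed level was 415, 143 and 389 FPKM. The transcription factor gene Zbtb46 was at 20.07, 1.46 and 13.05 FPKM and the receptor gene Flt3 at 46.0, 6.25 and 42.0. Non-classical monocyte markers summed to 801, 307 and 343 FPKM, with 5 of 7 lower in the mM-CSF and 5 of 7 in the sM-CSF library, among them Ace at 132.23, 4.09 and 26.52 FPKM and Cx3cr1 at 46.84, 8.70 and 14.37. B cell markers, of a lineage that also expresses Rel, Nfkb2 and Relb, summed to 1298, 2649 and 2463 FPKM. Cd79a was at 468.42, 1116.94 and 957.5 FPKM and Cd79b at 322.22, 917.54 and 634.28. In the mM-CSF library, where Rel was lowest, these 2 of the 8 were called higher and 1 other lower, with a list median of 0.36. In the sM-CSF library 2 of the 8 were higher and 0 lower. With the length trend removed 0 of the 8 were called in either library. None of these markers was listed at 0 in any library, and their part in the differences of the members was not tested.

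Granulocyte markers summed to 185, 1038 and 195 FPKM, with 7 of 9 higher in the mM-CSF library, and only those 7 reached the 5 FPKM that a call needs. Among them were Elane at 54.51, 396.71 and 51.68 and Prtn3 at 18.75, 157.56 and 28.65. Plasma cell markers were at 1391, 4382 and 1446 FPKM and T cell markers at 228, 669 and 439, with 4 of 6 and 5 of 6 measured genes higher in the mM-CSF library (2 and 3 with the length trend removed). NK cell markers were at 277, 536 and 350 FPKM, with 1 of 6 higher in the mM-CSF library (0 with the length trend removed) and 0 lower. Plasmacytoid dendritic cell markers were at 208, 259 and 229, with 1 of 5 higher there and 0 lower. Erythroid markers were at 4286, 3590 and 3194 FPKM, with 2 of 6 lower (5 with the length trend removed) and 0 higher. Progenitor and leukemia blast markers were at 70.4, 37.6 and 65.6 FPKM, a sum led by Kit (35.03, 6.02 and 34.67), while the list median was 0.34 in the mM-CSF library, with 1 of 5 lower and 0 higher. Macrophage markers summed to 2096, 2376 and 1407 FPKM, but 3 of 10 were lower in the mM-CSF library (Lyz2 at 784.46, 204.52 and 281.94, Itgam at 41.33, 5.76 and 19.96, and Mertk at 42.15, 17.75 and 25.58), 1 was higher (C1qa at 254.42, 1129.05 and 365.68), and the median was -0.16. With the length trend removed 2 of the 10 were lower and 1 higher, and Mertk, at -0.86, was short of 2-fold. Of all these markers only Trac, of the T cell list, was without a listed value in any library. The granulocyte and plasma cell lists were highest in the mM-CSF library, the one in which Rel, Nfkbiz and Tnfaip3 were lowest, and their part in those differences was not tested.

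By closeness of the pair of differences from the control, among 7625 genes at 10 FPKM or more in some library and over 3 libraries, the genes most like Rel were Uhmk1 (distance 0.06), Kcna3 (0.20) and Zbed6 (0.20). Uhmk1, a kinase gene, was at 20.68, 0.97 and 8.82 FPKM, and Kcna3, a potassium channel gene of lymphocytes and macrophages, at 14.06, 0.24 and 5.23. Zbed6 was at 14.02, 0.23 and 5.26 FPKM, a value that is uncertain because this gene lies within another. Among those most like Nfkbiz were Nxpe4 (0.09), at 20.69, 3.25 and 8.88 FPKM, and Ifi207 (0.11), an interferon-inducible gene, at 31.55, 6.29 and 13.68 FPKM. With 3 libraries, closeness in 2 differences that share a control is a weak measure of likeness.

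The members' counts were whole in each library within 0.005 reads. In the GRCm38 annotation of GENCODE, 8 of 10 members share no exon bases with another gene, while Nfkb2 shares 531 with a long non-coding RNA gene (AC114539.1) that has no value here and 299 with Psd, and Nfkbib 314 with Ccer2 and 42 with Sirt2, all on the opposite strand. Psd was at 5.75, 4.72 and 7.77 FPKM, Ccer2 at 0.32, 0.34 and 0.65, and Sirt2 at 45.31, 45.07 and 48.34. Whether counting used the strand is not given in the sources used here. Values of Nfkb2 and Nfkbib are uncertain to that extent. The deposited gene length, an average over transcripts weighted by their estimated levels in tables of this kind, differed between libraries by at most 1.8% (Nfkbib) among the members.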

How the data were processed

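RNA from sorted splenic macrophages was sequenced on a BGISEQ-500 instrument from 1 ug of total RNA per library, per the labels' protocols. Each library's table holds, per the file headers, an expected count (the authors' estimated count of reads for a gene), a gene length in bases and an FPKM value scaled by the authors to length and mapped fragments. Bowtie2 2.2.5 and RSEM are named in the submitters' processing notes without a role, and build and annotation are not given in the sources used here. Gene IDs were matched to symbols through a RefSeq table of GRCm38.p6 (all but 54 of 17615). A gene missing from a table was taken as 0.

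The members and lists were chosen with earlier results of these data known. Of 184 list genes 183 matched. Every value is from 1 library per group, so no test was run. Differences of log2(FPKM + 1) were called at 1 or more with at least 5 FPKM in the higher library, and list medians used genes at 1 FPKM or more. The length trend was the median difference in 20 equal bins of length, interpolated on log length. Named genes were all members, up to 4 genes per pathway list with the largest difference between mM-CSF and control at 5 FPKM or more, the first 2 of each marker list where markers are named, and the 3 nearest genes by pattern for the subunit and the inhibitor that differed most. Lyz2, Itgam, Mertk, C1qa, AC114539.1, Psd, Ccer2, Sirt2 and Trac were added after values were seen. Of the genes this rule gives, 2 are not reported here. Alternatives were pseudocounts of 0.1 and 5, minimums of 1 FPKM and none, TPM, median-of-ratios and upper-quartile scaling, removal of the length trend, and size rules of 1.5-fold and 3-fold. Calls and intervals were tested on simulated data. Analyses used Python 3.11.15, pandas 2.3.3 and scipy 1.17.1.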

Additional observations from a re-analysis of the deposited data

How the results depend on the processing

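Each group has 1 library, so neither leaving out a library nor a replicate spread could be had. No paired analysis was possible because each group has 1 library. The floor of 3 counts was 0.330 to 0.350 counts per 1000000, far below every member. Under every setting tried, 0 members were higher in any of the 3 comparisons. In the order mM-CSF against control, sM-CSF against control and mM-CSF against sM-CSF, pseudocounts of 0.1 and 5, absence of a minimum, median-of-ratios and upper-quartile scaling gave medians of the members from -0.96 to -0.86, -0.11 to -0.06 and -0.80 to -0.65. Scaling by TPM shifted the median over all genes by -0.43, -0.13 and -0.30 and gave medians of the members of -1.42, -0.21 and -1.11, of which -0.92, -0.10 and -0.70 lay beyond all genes. TPM called 281 genes higher and 3406 lower in the first comparison, in place of 878 and 1480. Median-of-ratios scaling shifted all genes by 0.12 in the third, with 584 higher and 613 lower in place of 363 and 836, and Nfkbiz there was at -0.99, as at -0.92 with a pseudocount of 5. Removal of the length trend gave medians of the members of -0.77 in the first and -0.56 in the third comparison, and left 2 members lower in the third. The 3-fold size rule left 3, 0 and 1 members lower. Of the single members' differences 23, 10 and 25 moved by more than the counting error allows and 47, 60 and 45 did not, and no called member changed sign.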
